A study of Rattus norvegicus with 3 samples.

Results

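The gene of the kinase ERK1 (Mapk3) and 8 genes of proteins that restrain ERK signalling were followed in rat sciatic nerve. They were taken from a list of names chosen with earlier results of these data known, and all were found among the 22608 genes of the mRNA table. The others are the phosphatase genes Dusp1, Dusp4, Dusp5 and Dusp6, the Sprouty genes Spry1, Spry2 and Spry4, and Spred1. Total RNA was sequenced from the nerve of male Sprague-Dawley (SD) rats at day 30, in 3 libraries with 1 library per group. In the sham library the nerve had been exposed and not crushed. In the model and AKBA libraries it had been crushed with vascular forceps, and the AKBA animals also received AKBA (acetyl-11-keto-beta-boswellic acid, from Boswellia resin). The model library carries the treatment label control, and its title letter and the design of the series were used to read it as crushed and not given AKBA. The sources used here do not give the dose of AKBA, the age of the animals or whether a library pools animals.

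ERK kinases such as ERK1 are the last step of the cascade from Ras through RAF and MEK, which carries signals of growth factor receptors into the cell. Active ERK induces its own restraint: dual-specificity phosphatases (DUSPs) take the phosphates off ERK, while Sprouty and Spred proteins act upstream, on the step from receptors to Ras and RAF. In mouse Schwann cells, the glia that wrap axons of peripheral nerve, strong ERK activity drives a return to an immature state after injury, and ERK activity also promotes myelin growth. The phosphorylation of ERK was not measured here, and every value below is one of transcripts.

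Levels are in CPM, the count of a gene per 1000000 counts of its library in the mRNA gene table. The total was 74184217 in sham, 89505656 in model and 90071899 in AKBA. Levels are given in the order sham, model and AKBA. Levels are not corrected for gene length and are compared only within a gene. With 1 library per group no difference has a replicate check and no p-value was computed. The 95% intervals (exact Clopper-Pearson for ratios, exact Poisson for levels) cover counting error only, not the spread between animals. Counts of higher and lower genes take those whose log2 ratio of CPM + 1 reached 1 in either direction, a 2-fold difference, out of 14427 genes that averaged at least 1 CPM. All 9 genes passed that filter. In bulk nerve, fewer cells of a type and less RNA per cell cannot be told apart. Over all genes the log2 ratio had a median of 0.18 between model and sham, -0.04 between AKBA and model and 0.16 between AKBA and sham. TMM scaling, which assumes that most genes do not differ, moved the median to -0.02 between model and sham and to 0.01 between AKBA and sham.

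By the 2-fold measure the counts among the 9 genes were near the shares over all genes. In model against sham 0 of the 9 were at least 2-fold apart, against 5.83% of all genes. In AKBA against model the count was also 0, against 4.05% of all genes. In AKBA against sham it was 1, Dusp1, against 7.91% of all genes. With 9 genes, counts of 0 and 1 do not set them apart. Each library enters 2 of these comparisons, so the counts are not independent. The median log2 ratio of the 9 genes was 0.27, -0.01 and 0.39 in the same order of comparisons. Relative to the median of all genes this was 0.09, 0.04 and 0.23.

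**Figure D1:**
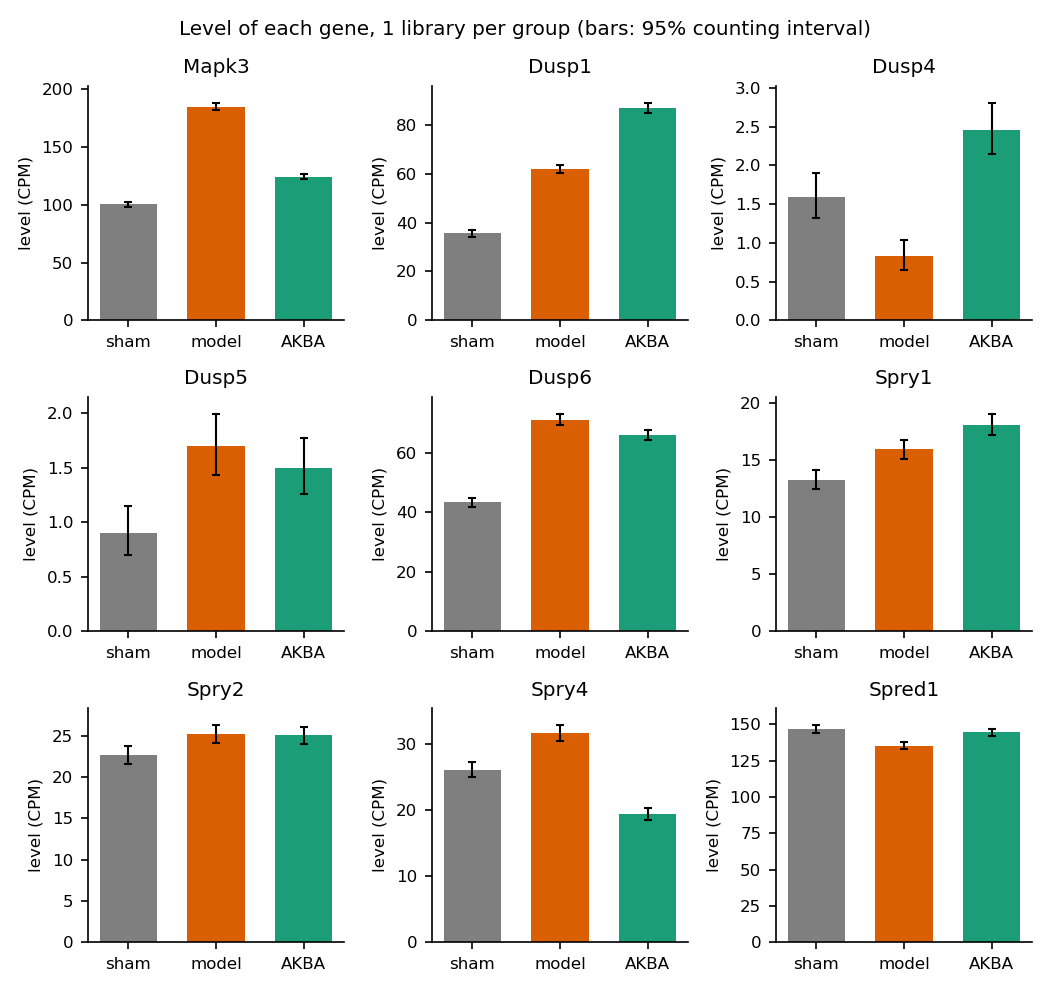
Level of each of the 9 genes in CPM (vertical axes, each from 0) in the sham, model and AKBA libraries; bars are single libraries and whiskers the 95% Poisson counting interval. Mapk3 is highest in model at 185 CPM, Dusp1 is highest in AKBA at 86.8 CPM, and Spred1 stays between 135 and 147 CPM.

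Smaller differences were larger than counting error for most genes. The interval of the CPM ratio left out 1 for 9 of 9 genes in model against sham, for 7 of 9 in AKBA against model and for 8 of 9 in AKBA against sham. At this depth small ratios do so, such as Spry2 in model against sham at 1.11 (1.04 to 1.18). The share of all genes whose interval left out 1 was not computed, so these counts do not set the 9 genes apart. The sham library held the lowest level for 6 of the 9 genes, among them Mapk3, Dusp1 and Dusp6. The model library held the highest level for 5, the AKBA library for 3 (Dusp1, Dusp4 and Spry1) and the sham library for 1 (Spred1). These orders are those with total counts, where the median of all genes also lay above sham in both crushed nerves. With TMM scaling Spry2 was highest in sham, at log2 ratios to sham of -0.06 in model and -0.02 in AKBA. The shares of all genes in each order were not computed, so the orders are a description.

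Mapk3, the gene of ERK1, stood at 100.4, 185 and 124 CPM. The model library was the highest and the AKBA library lay between it and sham. The CPM ratio of model to sham was 1.84 (95% interval 1.79 to 1.89), and 6.41% of all genes had a log2 ratio as high. AKBA to model was 0.673 (0.657 to 0.689), with 5.67% of all genes as low, and AKBA to sham was 1.24 (1.20 to 1.28). The ratios of model to sham and of AKBA to model did not reach 2-fold on the scale of CPM + 1, where the log2 ratios were 0.87 and -0.57.

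The kinases above ERK differed in direction. The MEK genes, whose products phosphorylate ERK, were above sham in both crushed nerves, Map2k1 at 39.4, 55.4 and 64.2 CPM and Map2k2 at 34.2, 54.0 and 53.7 CPM. Among the RAF genes, which encode the kinases of MEK, Araf stood at 56.1, 74.2 and 71.5 CPM. Braf went the other way, at 64.1, 32.3 and 50.9 CPM. Its CPM ratio of model to sham was 0.504 (0.481 to 0.528), just short of 2-fold on the scale of CPM + 1 (log2 ratio -0.97) and past it with TMM scaling (-1.18).

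Dusp1 encodes a nuclear phosphatase that acts on p38 and JNK as well as on ERK and that is itself an early response gene. It stood at 35.6, 61.8 and 86.8 CPM, so that the 3 libraries were ordered sham, model, AKBA from low to high. AKBA to sham was 2.44 (2.33 to 2.55; log2 ratio 1.26), a ratio as high as that of 3.07% of all genes. Model to sham was 1.74 (1.66 to 1.82) and AKBA to model 1.41 (1.36 to 1.45). The difference between AKBA and sham stayed past 2-fold with TMM (log2 ratio 1.10) and upper quartile scaling (1.10). The early response genes Fos (9.75, 18.7 and 48.5 CPM) and Junb (19.6, 39.8 and 59.9 CPM) were in the same order, as were Fosl1 and Egr2. Other early response genes were not. Egr1, Egr3, Ier2 and Ier3 were highest in model, and Fosb was lowest there. The summed level of 15 skeletal muscle markers was 462, 937 and 6978 CPM, and 14 of the 15 ran in that order. The sum of 8 smooth muscle and pericyte markers was 1555, 2403 and 3341 CPM, but only 4 of the 8 (Acta2, Myh11, Tagln and Pdgfrb) ran in that order, while Rgs5, Notch3 and Kcnj8 were highest in model and Cnn1 was lowest there. Markers of repair Schwann cells (8 genes) summed to 179, 232 and 368 CPM, with 4 of the 8 in that order. The part of these cells in the level of Dusp1 was not tested.

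Upstream sequences are shown for Dusp1, the gene past 2-fold, and for Braf, which was lower in model, because both hold the cAMP response element. They are the 250 bases before the annotated start, 5′ to 3′, from RefSeq (GRCr8), with motif matches in capitals. Dusp1 is at chr10:17184603-17184852 (plus strand) and Braf at chr4:69476932-69477181 (minus strand).
Dusp1: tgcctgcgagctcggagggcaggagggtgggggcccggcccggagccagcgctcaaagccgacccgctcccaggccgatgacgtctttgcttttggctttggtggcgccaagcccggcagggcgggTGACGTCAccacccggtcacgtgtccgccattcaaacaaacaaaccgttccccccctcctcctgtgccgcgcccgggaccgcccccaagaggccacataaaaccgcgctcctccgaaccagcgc
Braf: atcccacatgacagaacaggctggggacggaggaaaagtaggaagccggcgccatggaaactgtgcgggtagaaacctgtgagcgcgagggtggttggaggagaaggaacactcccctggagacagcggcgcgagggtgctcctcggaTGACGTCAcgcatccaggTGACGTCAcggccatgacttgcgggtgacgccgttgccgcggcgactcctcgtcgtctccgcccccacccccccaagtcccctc
The capitals are the cAMP response element TGACGTCA, which reads the same on both strands. It lies 124 to 117 bases before the start in Dusp1, and in Braf it is present at 102 to 95 and at 84 to 77 bases before it. Of 33469 promoters of this length, 1.59% held it. These are matches of letters, in genes whose levels went opposite ways between model and sham, and binding was not measured.

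Dusp5, a nuclear phosphatase specific to ERK, was a low gene, with 67, 152 and 135 counts. Its levels were 0.903, 1.70 and 1.50 CPM. The model and AKBA intervals overlapped (1.44 to 1.99 and 1.26 to 1.77 CPM), and both lay above that of sham (0.700 to 1.15 CPM). Model to sham was 1.88 (1.40 to 2.54) and AKBA to model 0.883 (0.695 to 1.12). The region upstream of Dusp5 (chr1:262543524-262543773, plus strand, RefSeq GRCr8) is shown because it holds a tandem pair of CArG boxes, the motif bound by serum response factor, and the gene of that factor (Srf) was itself at least 2-fold higher in model than in sham.
Dusp5: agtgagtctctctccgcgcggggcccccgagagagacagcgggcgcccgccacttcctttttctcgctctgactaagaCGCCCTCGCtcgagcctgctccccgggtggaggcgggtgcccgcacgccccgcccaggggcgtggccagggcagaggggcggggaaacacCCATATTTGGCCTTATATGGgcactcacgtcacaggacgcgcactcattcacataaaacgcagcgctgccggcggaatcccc
The 20 capitals in one run are CArG boxes, each read alike on either strand, at 82 to 73 and 72 to 63 bases before the start. The other capitals are a match to the EGR motif GCGNGGGCG on the minus strand, which starts 172 bases before it. Of all promoters of this length, 1.50% held a CArG box and 4.29% the EGR motif. Srf stood at 21.7, 47.1 and 44.7 CPM, above sham in both crushed nerves, and with TMM scaling it was short of 2-fold. The motifs are matches of letters and binding was not measured. The part of Srf in the level of Dusp5 was not tested.

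Among the 9 genes, 7 matched the RefSeq promoter table, with 8 promoters, since Spry2 has a pair of starts. The CRE was found in 1 of the 7 (Dusp1) and the CArG box in 1 (Dusp5). The EGR motif was in 2 of them (Dusp5 and Spry2) and the ETS core CCGGAA in 2 (Spry2 and Spry4), against 12.6% of all promoters for the ETS core. The AP-1 motif TGANTCA was in 0 of the 7, against 6.34%. Both strands were searched.

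Dusp4, another nuclear phosphatase that is induced by ERK, was lowest in model. It had 118, 74 and 221 counts, or 1.59 (1.32 to 1.90), 0.827 (0.649 to 1.04) and 2.45 (2.14 to 2.80) CPM, and the 3 intervals did not overlap. Its CPM ratio of AKBA to model was 2.97 (2.27 to 3.92), the largest ratio among the 9 genes in any comparison. On the scale of CPM + 1, which understates low genes, the log2 ratio was 0.92 and short of the 2-fold count. At a pseudocount of 0.1 CPM it was 1.46. Model to sham was 0.520 (0.383 to 0.701). Dusp4 and Dusp5 thus stood on opposite sides of sham in the model library.

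Dusp6, the cytoplasmic phosphatase that is specific to ERK, stood at 43.4, 71.2 and 66.1 CPM. Both crushed nerves were above sham, by 1.64 in model (1.57 to 1.71) and 1.52 in AKBA (1.46 to 1.59). AKBA to model was 0.928 (0.896 to 0.962). Dusp1 and Dusp6 therefore parted in the AKBA library. A ratio of counts within a library uses no scaling between libraries, and because it depends on the lengths of both genes it is read only across libraries. Counts of Dusp1 per count of Dusp6 were 0.820 in sham (0.778 to 0.863), 0.868 in model (0.837 to 0.900) and 1.31 in AKBA (1.27 to 1.36). Dusp6 counts per Mapk3 count were 0.432, 0.385 and 0.531.

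The Sprouty genes, inhibitors of signalling from growth factor receptors, did not move together. Spry1 stood at 13.3, 16.0 and 18.1 CPM, in the order sham, model, AKBA from low to high, with AKBA to sham at 1.36 (1.26 to 1.48). Spry2 was nearly level at 22.7, 25.2 and 25.0 CPM, and its interval for AKBA to model included 1 (0.937 to 1.05). Its sign against sham depended on the scaling, with a log2 ratio of model to sham of 0.14 with total counts and -0.06 with TMM. The log2 ratios of model to sham of Spry1 and Spry4 also shrank, from 0.25 and 0.27 to 0.04 and 0.06 with TMM. The place of model above sham is therefore not firm for these genes. Spry4 stood at 26.1, 31.6 and 19.4 CPM and was the one gene of the 9 with its lowest level in AKBA. Its CPM ratio of AKBA to model was 0.615 (0.579 to 0.653), with 3.96% of all genes as low, and AKBA to sham was 0.745 (0.698 to 0.795).

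Counts of Spry4 per count of Spry1 show the same difference without scaling. They were 1.96 in sham (1.82 to 2.12) and 1.98 in model (1.86 to 2.11), which overlap, and 1.07 in AKBA (1.002 to 1.15). Per count of Spry2, Spry4 had 1.15, 1.26 and 0.777 counts.

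**Figure D2:**
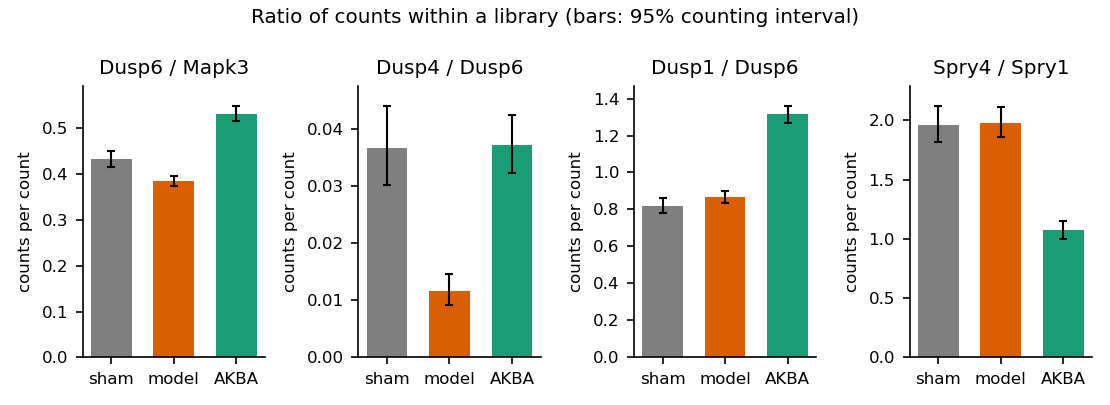
Counts of one gene per count of another within the same library (vertical axes from 0, no scaling between libraries) for Dusp6 per Mapk3, Dusp4 per Dusp6, Dusp1 per Dusp6 and Spry4 per Spry1; whiskers are the 95% counting interval. Dusp4 per Dusp6 is lowest in model (0.0116), Dusp1 per Dusp6 is highest in AKBA (1.31), and Spry4 per Spry1 is lowest in AKBA (1.07).

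Spred1 brings the Ras inhibitor neurofibromin to the membrane. It stood at 147, 135 and 145 CPM. Model to sham was 0.924 (0.900 to 0.948), and the interval for AKBA to sham included 1 (0.962 to 1.01). With TMM scaling its log2 ratio of model to sham was -0.33, against -0.11 with total counts. Nf1, the gene of neurofibromin, stood at 215, 194 and 156 CPM.

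**Figure D3:**
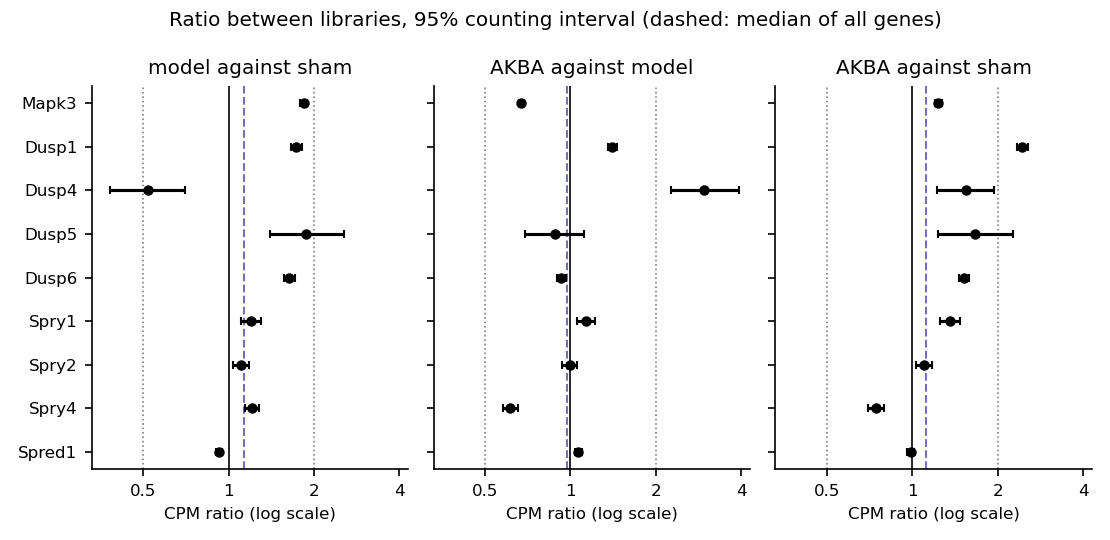
CPM ratio between libraries (horizontal log axis) for each of the 9 genes in the 3 comparisons, with the 95% counting interval; solid line 1, dotted lines 2-fold, dashed line the median of all genes on the log2 scale of CPM + 1. Dusp4 is lowest in model against sham (0.520) and highest in AKBA against model (2.97), where Mapk3 (0.673) and Spry4 (0.615) are the lowest.

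Around these genes, 8 further lists of the Ras-ERK and neighbouring pathways held 117 genes, of which 106 passed the level filter. In model against sham 13 of the 106 were at least 2-fold higher, against 4.52% of all genes, and 1 was lower, against 1.31%. With TMM scaling the split was 6 to 2, where over all 14422 genes it was 376 to 293. In AKBA against model 4 were higher (Crkl, Rasal3, Fos and Fosb), against 2.69%, and 0 lower, against 1.37%. Of these 4, Crkl rests on a count of 0 in model, which is not read as absence. In AKBA against sham 13 were higher, against 5.83%, and 0 lower, against 2.08%. With TMM scaling that split was 9 to 0, where over all genes it was 579 to 435. The lists were written from textbook knowledge, but with earlier results of these data known. These counts are therefore a description and not a test of the lists. The description of each list follows.

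The list of ERK output genes, which are induced when ERK is active, held most of them. In model against sham 8 of its 19 measured genes were past 2-fold upward, against 4.52% of all genes, and 0 downward, against 1.31%. The median log2 ratio was 0.92 against 0.18 for all genes. With TMM scaling 4 were past 2-fold upward, namely Epha2, Egr1, Egr3 and Ier2, and the median was 0.71. The receptor gene Epha2 stood at 12.8, 34.5 and 32.2 CPM, and the early response gene Ier2 at 15.2, 36.9 and 36.0 CPM. Egr1 and Egr3, early response transcription factors, had levels of 9.72, 25.4 and 15.5 CPM (Egr1) and of 3.38, 9.09 and 5.92 CPM (Egr3), with AKBA between model and sham. The other 4 were Epha4 (8.25, 17.5 and 12.8 CPM), Fosl1 (0.998, 3.14 and 4.86 CPM), Ier3 (8.36, 18.5 and 17.6 CPM) and Egr2 (19.7, 41.9 and 48.3 CPM). Egr2 is also a transcription factor of myelinating Schwann cells, and the summed level of 10 Schwann cell markers, Egr2 among them, was 15190, 40228 and 35845 CPM. Of the 10, 9 were lowest in sham and 6 were highest in AKBA. The part of Schwann cells in these levels was not tested. Mapk3 and Dusp6 were higher in model than in sham along with them.

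Within the output list AKBA and model differed gene by gene. Fos and Fosb (1.51, 1.41 and 7.25 CPM) were at least 2-fold higher in AKBA than in model, and Egr1 had the lowest ratio, 0.611 (0.571 to 0.653). The list median was -0.02, against -0.04 for all genes. The cell cycle gene Ccnd1 (98.5, 188 and 199 CPM) was at least 2-fold higher in AKBA than in sham, as were Junb, Fos, Fosb, Fosl1, Egr2, Epha2 and Ier2. In all 8 of 19 were, against 5.83% of all genes. Ccnd1 lay at a log2 ratio of 1.01 and was not past 2-fold with TMM or upper quartile scaling or without ribosomal RNA rows, which left 7 of 19. The ETS factor gene Etv5, which like the Sprouty genes is an output of growth factor signalling, stood at 33.6, 31.4 and 22.3 CPM, lowest in AKBA as Spry4 was. Its relative Etv1 was also lowest in AKBA, at 109.6, 104.5 and 86.0 CPM. Another relative, Etv4, was lowest in model, at 4.22, 3.16 and 4.05 CPM. Etv1, Etv4 and Etv5 were all lower in model than in sham, where 15 of the 19 genes of the list were higher. Most genes were higher in that comparison with total counts, as 71.1% of all genes had a log2 ratio of -0.0003 or above. With 19 genes, the count of 15 does not set the list apart.

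Among 15 measured Ras GAPs and other inhibitors, 3 were at least 2-fold higher in model than in sham, against 4.52% of all genes. In AKBA against sham 3 were, against 5.83%. With TMM scaling these counts were 1 and 2. The list medians of the log2 ratio, 0.14 and 0.18, lay near those of all genes, 0.18 and 0.16. Errfi1, a feedback inhibitor of ErbB receptors, stood at 46.3, 102 and 127 CPM, and Erf, an ETS repressor that ERK drives out of the nucleus, at 12.01, 26.9 and 33.6 CPM. Both ran in the order sham, model, AKBA, as Dusp1 did. Errfi1 was 2.21 times its sham level in model (2.12 to 2.30) and 2.75 times in AKBA (2.65 to 2.86). With TMM scaling Errfi1 and Erf were past 2-fold only in AKBA against sham. The Ras GAP gene Rasal1 was highest in model, at 1.58, 5.58 and 2.78 CPM, and Rasal3, a Ras GAP of blood cells, was highest in AKBA, at 3.96, 4.01 and 9.86 CPM. Rasal3 was the one gene of this list at least 2-fold higher in AKBA than in model.

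Of 10 other MAPK phosphatases measured, 1 was at least 2-fold higher in model than in sham, against 4.52% of all genes. With 10 genes, a count of 1 does not set the list apart. The gene was Dusp2, a nuclear phosphatase found in immune cells, with 49, 292 and 146 counts (0.661, 3.26 and 1.62 CPM). In AKBA against model it had the lowest ratio of the list, 0.497 (0.404 to 0.608), and Dusp16, which acts on JNK and p38, the highest, 1.79 (1.69 to 1.90), at 29.8, 19.1 and 34.2 CPM. Dusp16 and Dusp4 were thus both lowest in model, where Dusp2, Dusp5 and Dusp6 were highest.

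In the lists that carry the signal forward the counts past 2-fold were too small to set beside the 5.83%, 4.05% and 7.91% of all genes. Of 9 ERK cascade kinases 0 were at least 2-fold apart in any of the 3 comparisons with total counts, and the median log2 ratios were 0.25, -0.05 and 0.11. In AKBA against model Braf had the highest ratio (1.58) and Mapk7, the gene of ERK5, the lowest (0.872). Among 13 Ras and exchange factor genes 0 were at least 2-fold apart, with Mras lowest in AKBA against model (28.7, 42.7 and 27.4 CPM) and Rasgrp4 highest (5.03, 4.45 and 6.06 CPM). Among 14 adaptors and scaffolds the lowest in AKBA against model was Pea15, which holds ERK in the cytoplasm, at 625, 1067 and 703 CPM. Like Mapk3 it was highest in model. The adaptor gene Crkl had 721, 0 and 975 counts and accounts for the 1 lower gene in model against sham. A row at 0 beside levels of this size is not read as absence.

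**Figure D4:**
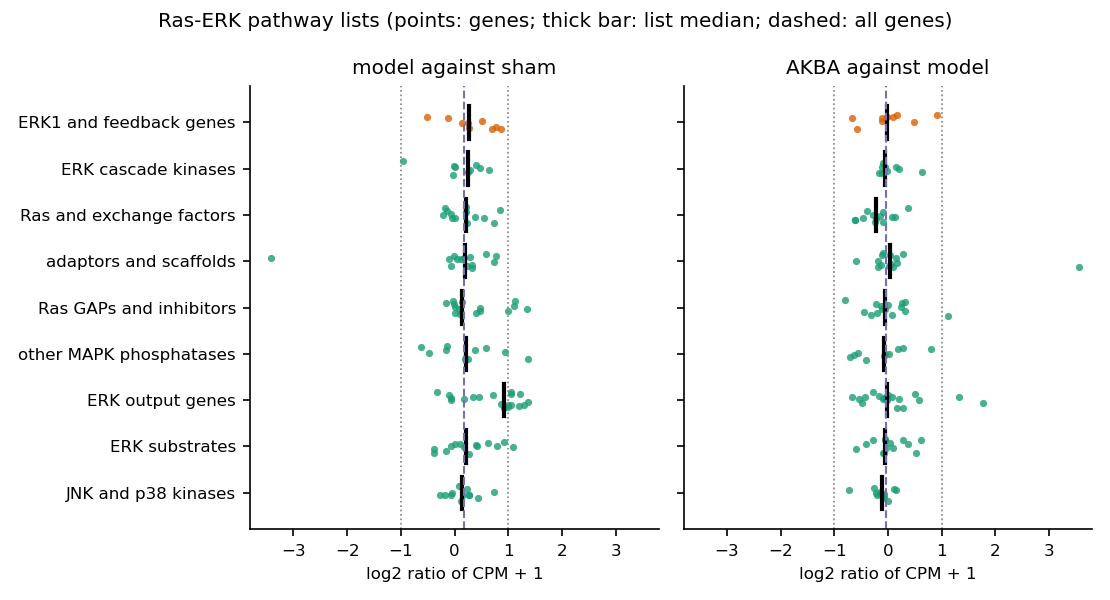
Log2 ratio of CPM + 1 (horizontal axes) of each measured gene in the 9 genes followed here (top row) and the 8 further pathway lists, with model against sham on the left and AKBA against model on the right; thick bars are list medians, dotted lines 2-fold and the dashed line the median of all genes. The ERK output genes have a median of 0.92 in model against sham and -0.02 in AKBA against model.

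Genes with the pattern most like that of Mapk3 and Dusp1 were looked for by the distance between their log2 ratios of model to sham and of AKBA to sham, over the 3 libraries. Out of 10617 named genes that averaged 5 CPM or more, the nearest to Mapk3 were Spp1 (504, 925 and 624 CPM; distance 0.003), Papln and Coprs, and 121 genes lay within 0.2. The nearest to Dusp1 were Col27a1 (16.4, 29.5 and 40.9 CPM; distance 0.03), Lmod1 and Akr1b8, and 64 genes lay within 0.2. With 3 libraries many genes share a pattern, and these names are a description.

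Marker genes of other cell types also differed between the libraries. Their summed levels were 695, 985 and 916 CPM for 8 endothelial genes, 879, 1806 and 1384 CPM for 6 perineurial genes, and 8012, 4772 and 2490 CPM for 8 adipocyte genes. Of these, 5 of the 8 endothelial and 5 of the 6 perineurial genes were highest in model, as Mapk3 was, and 7 of the 8 adipocyte genes ran from sham down to AKBA. The sum of 10 macrophage genes was 2282, 1750 and 2269 CPM, but 7 of the 10 were highest in model, and without Lyz2 (1039, 387 and 1196 CPM) the sum was 1243, 1363 and 1074 CPM. The sum of 8 fibroblast genes was 26025, 20772 and 26813 CPM. Without Col1a1 it was 13359, 10366 and 11465 CPM, and Pdgfra, Dpt, Pi16 and Clec3b were lowest in AKBA. Keratinocyte and hair markers (7 genes) summed to 8.11, 8.35 and 113 CPM, with all 7 highest in AKBA. Mast cell markers (6 genes) summed to 189, 271 and 95.1 CPM, with all 6 lowest in AKBA. T cell markers (5 genes) summed to 6.61, 10.03 and 13.3 CPM, and red cell markers (6 genes) to 1187, 1952 and 1174 CPM. Neutrophil markers (6 genes) summed to 64.7, 50.7 and 21.3 CPM, but only 2 of the 6 ran from sham down to AKBA. Without Mpo (54.4, 42.4 and 14.3 CPM) the sum was 10.3, 8.22 and 7.08 CPM. Muscle precursor markers (6 genes) summed to 0.054, 0.883 and 26.2 CPM, with Pax7, Myf5, Myod1, Myog and Myh8 at 0 in sham. Ribosomal RNA rows took 11.5%, 4.20% and 7.59% of the counts. The part of these differences in the levels of the 9 genes was not tested.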

How the data were processed

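The authors deposited raw counts per mRNA gene and transcript; in the model column each count was followed by 2 text characters, which were removed, and as deposited that column has the unit other. Probes removed ribosomal RNA and random primers started the cDNA, per the labels' protocols. HISAT2, StringTie, bcl2fastq 2.0, limma and DESeq2 are listed without roles in the submitters' processing notes, as is the mouse build mm10, although row names are those of rat. The sources used here do not give the strand setting or the handling of reads that match several genes. Columns were mapped to groups by the key given with the series.

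CPM, ratios, intervals and list medians were computed in Python 3.11.15 with scipy 1.17.1, and TMM and upper quartile factors with edgeR 4.0.16. PCR copies are not independent molecules. The calls and intervals were run on simulated counts that held counting error only. Those counts had no spread between animals, so the run checks the computation and not whether a call would recur in other animals. Genes named beside the 9 were those past 2-fold, the partner kinases given above, and the extreme ratios of each list in AKBA against model. Nf1, Etv1, Etv4, Etv5 and the marker sums were added after their values were seen. The 9 genes and the lists were chosen with earlier results of these data known. Marker lists of 15 cell types were summed. Transcripts were placed in genes by accession through RefSeq; lncRNA tables were not used here. Some results are not reported here.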

Additional observations from a re-analysis of the deposited data

How the results depend on the processing

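No paired analysis was possible because each group has 1 library, and for the same reason no replicate could be left out. The counts of the 9 genes at least 2-fold apart were the same under TMM and upper quartile scaling, totals without ribosomal RNA rows or without skeletal muscle genes, a pseudocount of 5 CPM, no level filter, a 5 CPM filter (which Dusp4 and Dusp5 did not pass) and sums of transcripts (where Spry1 and Spry2 had no usable value). The exception was 1 gene, Dusp4, in AKBA against model at a pseudocount of 0.1 CPM. The setting without skeletal muscle genes took 15 marker genes out of the library totals and changed the scaling only. It took no RNA of muscle out of the counts of the 9 genes. The median log2 ratio of the 9 genes in model against sham (0.27) was 0.059 with TMM, 0.071 with upper quartile scaling, 0.16 without ribosomal RNA rows and 0.53 with sums of transcripts. That 0.53 is the value of Spred1 itself, whose transcript sum holds little of its gene count. In AKBA against sham the median (0.39) was 0.26 with TMM, 0.26 with upper quartile scaling and 0.18 at a pseudocount of 5 CPM. In AKBA against model the median (-0.01) was -0.11 with sums of transcripts. Sums of transcripts equal the gene count for 5 of the 9 genes; for Spry1 0 transcripts were placed, and the sums for Spry2 and Spred1 hold under 4% of the gene count, and the sign of Spred1 turns with them. Of the other pathway genes in model against sham, 6 were higher and 2 lower with TMM and likewise 6 and 2 with upper quartile scaling, in place of 13 and 1. Over all genes that comparison had 652 higher and 189 lower, 376 and 293 with TMM, 393 and 284 with upper quartile scaling, 941 and 295 at a pseudocount of 0.1 CPM, 293 and 74 at 5 CPM, and 288 lower with sums of transcripts. AKBA against model had 388 and 197, 516 and 311 at 0.1 CPM, 183 and 75 at 5 CPM, and 321 lower with sums of transcripts. AKBA against sham had 841 and 300, and 367 and 181 at 5 CPM. Depth limits Dusp4 and Dusp5 most, with under 250 counts in every library.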

Other observations

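Kinases of the neighbouring JNK and p38 pathways were measured for 12 of 13 listed genes, and 0 were at least 2-fold apart in any of the 3 comparisons, against 5.83%, 4.05% and 7.91% of all genes. With 12 genes this does not set the list apart. Their median log2 ratio was 0.14 in model against sham, -0.10 in AKBA against model and -0.02 in AKBA against sham. The p38 gene Mapk14 had the highest ratio of AKBA to model, at 60.6, 73.1 and 80.9 CPM in sham, model and AKBA. The JNK gene Mapk10, which is mainly neuronal, had the lowest, with 79, 220 and 99 counts.

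Kinases and transcription factors that ERK phosphorylates were measured for 14 of 15 listed genes. In AKBA against sham 2 were at least 2-fold higher, Srf and the RSK gene Rps6ka2, against 5.83% of all genes. Rps6ka2 stood at 22.1, 34.8 and 45.5 CPM, in the same order of libraries as Dusp1. With TMM scaling 0 of the 14 were past 2-fold in that comparison. Rps6ka1 had the highest ratio of AKBA to model (13.7, 16.7 and 25.9 CPM) and Rps6ka5 the lowest (59.3, 63.7 and 42.1 CPM).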
